A study of Mus musculus with 2 samples.

Results

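Small nucleolar RNAs (snoRNAs) are mostly carried inside the introns of other genes, and the genes that carry them are called host genes. Here 10 mouse host genes, Rabggtb, Thumpd3, Gas5, Snhg1, Snhg3, Snhg5, Snhg6, Snhg7, Snhg8 and Snhg12, were described in RNA sequencing of sorted bone marrow stromal cells. They were taken by symbol from a table of 35798 rows, keeping rows that name 1 gene and setting rows that name several genes apart. Only 2 of the 10, Rabggtb and Thumpd3, had a row of their own, and both passed the filter of 1 FPKM (fragments per kilobase of transcript, scaled to the mapped fragments of the library) in at least 1 library. Gas5 and Snhg12 were each named in a row together with small RNAs. At Snhg1, Snhg5 and Snhg7 a row under another name covered the same interval, with an overlap of at least 90% both ways. At Snhg3, Snhg6 and Snhg8 no row for the host was found. The members were chosen by symbol with their control and JAK2 V617F FPKM values in view, so their own differences are a description.

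The sort took bone marrow cells that expressed GFP under nestin regulatory sequence (Nes-gfp) and lacked the leukocyte marker CD45, the endothelial marker CD31 and the red cell marker Ter119. The control library came from adult Nes-gfp littermates on the C57BL/6 background. The JAK2 V617F library came from adult Nes-gfp;Mx1-cre;JAK2-V617F mice on the same background. Both groups received pIpC, a double-stranded RNA analogue that induces the interferon-responsive Mx1 promoter, and were taken 6 weeks later. Pools of 3 animals gave 1 library for each genotype, so values have no replicate error and no test between genotypes is possible. In what follows, control cells and JAK2 V617F cells are named by the mice they came from. The labels give no Mx1-cre for the controls, so an effect of Cre and one of the mutant kinase cannot be told apart. Mx1-cre is known to act in blood cells and several other cell types.

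A snoRNA is trimmed from the spliced and debranched intron by exonucleases and protected by its bound proteins. Box C/D snoRNAs guide 2′-O-methylation of ribosomal RNA and box H/ACA snoRNAs guide pseudouridylation. The exons of some hosts encode proteins, while hosts of the SNHG type (small nucleolar RNA host gene) and Gas5 make spliced noncoding RNAs, several of which are known targets of nonsense-mediated decay. Many hosts belong to the TOP class, genes with a pyrimidine tract at the transcript start whose translation follows growth signals. Gas5 is known to accumulate in growth-arrested cells.

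GENCODE vM21, an annotation of build GRCm38, placed 33 distinct small RNAs inside the 10 genes, of which 32 were snoRNAs and 1 was an snRNA. Gas5 held 9 snoRNAs, Snhg1 held 8, Snhg12 held 4 and Rabggtb held 3. Snhg3, Snhg5 and Snhg7 held 2 each, and Snhg6 and Snhg8 held 1 each. Thumpd3 held no annotated snoRNA. The single small RNA annotated in it was Gm22591, an snRNA, so for Thumpd3 the annotation goes against the name of the group. The sequences below show what the hosts with their own row carry, all 3 snoRNAs of Rabggtb and the snRNA of Thumpd3, and beside them 3 snoRNAs that have a row of their own in the table while lying in SNHG hosts. They come from the GENCODE transcripts and are written 5′ to 3′ as DNA letters. Capitals mark the C box (searched as TGATGN in the first 20 bases) and the D box (CTGA in the last 15 bases), or the ACA box (ACA followed by the last 3 bases). Gm22591 has no capitals because it is an snRNA.
Snord45b of Rabggtb: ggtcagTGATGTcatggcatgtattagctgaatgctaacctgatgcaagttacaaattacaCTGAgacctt
Gm24494 of Rabggtb: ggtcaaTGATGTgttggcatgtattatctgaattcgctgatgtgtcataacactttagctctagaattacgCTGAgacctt
Snord45c of Rabggtb: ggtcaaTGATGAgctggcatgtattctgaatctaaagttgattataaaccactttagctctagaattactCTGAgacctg
Snord87 of Snhg6: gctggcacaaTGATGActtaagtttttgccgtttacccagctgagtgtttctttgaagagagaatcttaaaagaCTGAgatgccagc
Snora24 of Snhg8: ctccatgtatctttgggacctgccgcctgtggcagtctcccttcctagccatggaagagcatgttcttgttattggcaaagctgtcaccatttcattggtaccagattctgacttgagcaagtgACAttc
Snora16a of Snhg12: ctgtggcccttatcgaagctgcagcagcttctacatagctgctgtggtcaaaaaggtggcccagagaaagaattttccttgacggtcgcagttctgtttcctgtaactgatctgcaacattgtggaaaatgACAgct
Gm22591 of Thumpd3: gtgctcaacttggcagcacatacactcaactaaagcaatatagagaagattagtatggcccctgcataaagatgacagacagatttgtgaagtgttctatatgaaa

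The 3 snoRNAs of Rabggtb lie on the minus strand at chr3:153910563-153910633 (Snord45b, 71 nt), chr3:153911610-153911690 (Gm24494, 81 nt) and chr3:153912125-153912204 (Snord45c, 80 nt). Gm24494 and Snord45c shared an unbroken run of 20 bases, cactttagctctagaattac, just before the D box. Snord45b shared at most 12 unbroken bases with Gm24494 and 11 with Snord45c. Snord87 lies at chr1:9942463-9942549, Snora24 at chr3:123507937-123508066 and Snora16a at chr4:132309464-132309600. Gm22591 lies on the plus strand at chr6:113060698-113060803, in an intron of 1 and under an exon of 2 of the 10 annotated Thumpd3 transcripts.

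Of the 32 snoRNAs, 21 had both a C and a D box by this search and 6 had an ACA box without that pair. The other 5 had neither the pair nor an ACA box. Of these 5, Gm25894, Gm24453, Snord22 and Snora17 had a D box without a C box, and Snora44 had no box. Snora43, counted with the ACA box, also had a D box. Of all 454 annotated snoRNA transcripts of 60 to 100 nt, 72.9% had both the C and the D box, and of the 1048 over 100 nt, 24.4% had the ACA box. These shares are split by length while the member counts are out of all 32, so the bases are unlike. All 21 snoRNAs with C and D boxes lay in an intron of at least 1 annotated host transcript. Their 3′ ends were 65 to 721 nt before the next exon, with a median of 75 nt, taking the nearest exon over transcripts. Of the 21, 16 (76.2%) lay 50 to 100 nt before it, a range set after seeing the distances. Among 195 other snoRNAs with both boxes in introns of genes tagged as small RNA hosts by GENCODE, 29.7% did so, with a median distance of 383 nt. Many of these 195 start in 1 stretch of chromosome 7 (chr7:59386081 to chr7:59980876), all of them 239 to 180591 nt before the next exon. That locus weighs on the share and the median, which were not computed without it. The 195 also include another annotated entry of Snord80 in Gas5. No test was made, since snoRNAs of 1 host share their gene and annotation.

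The distances in Rabggtb overlapped those in the noncoding hosts. Snord45c lay 92 nt before the next exon, Snord45b at least 196 nt and Gm24494, the farthest of all, at least 721 nt. In Gas5, Gm26224 lay 278 nt and Snord80 at least 313 nt before the next exon, and the other 7 lay within 78 nt at their nearest. Gm23246 of Snhg1 lay 121 nt away and Snora16a of Snhg12 lay 237 nt away. The snoRNAs of Snhg3, Snhg5, Snhg6 and Snhg8 lay 71 to 80 nt away at their nearest.

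**Figure D1:**
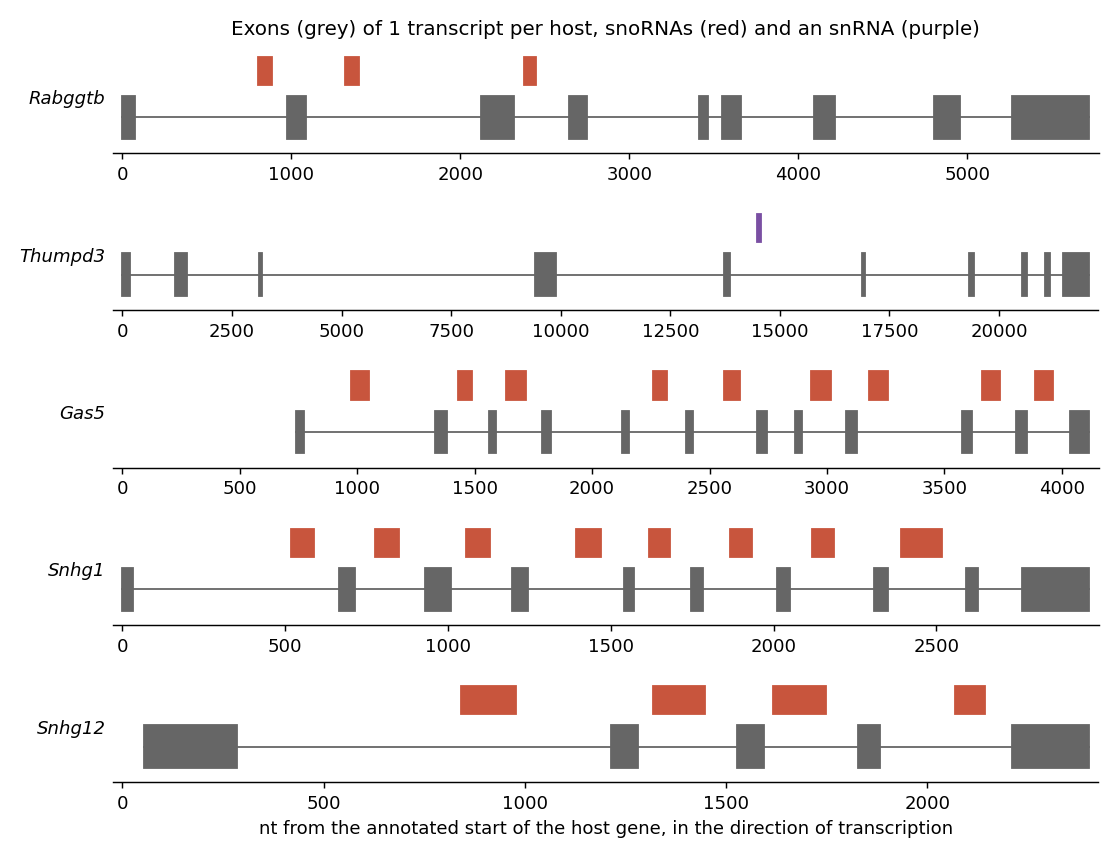
Gene maps of 5 hosts. The horizontal axes give nt from the annotated start of the gene in the direction of transcription, each to its own scale, with grey boxes for the exons of 1 annotated transcript, red boxes for snoRNAs and a purple box for the snRNA Gm22591. The 9 snoRNAs of Gas5 and the 8 of Snhg1 alternate with short exons, while Thumpd3 holds only the snRNA.

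**Figure D2:**
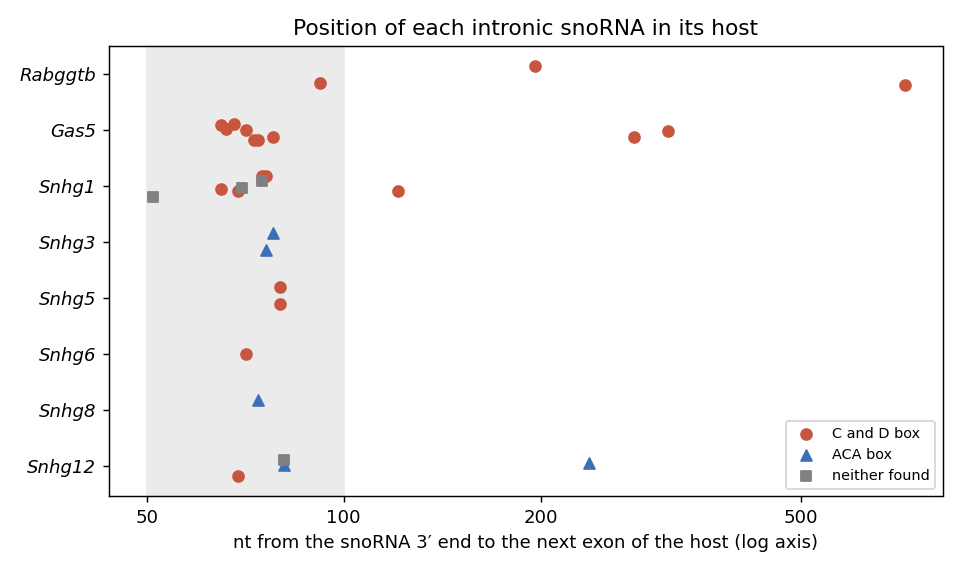
Distance in nt, on a log axis, from the 3′ end of each of the 30 snoRNAs annotated in an intron of a host transcript to the next exon. Points are single snoRNAs by box class, with the range of 50 to 100 nt shaded, and Gm24494 of Rabggtb is the farthest point at 721 nt.

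Promoter sequence from RefSeq (build GRCm38.p6, 250 bases before to 50 after the annotated start) was at hand for 9 of the 10 hosts. A pyrimidine tract was searched as a C followed by C or T to a length of at least 7 bases, starting within 15 bases of the annotated start. It was found at Snhg12 only among the 9, and in 15.9% of 32851 promoter entries. A shorter minimum of 5 bases was tried after that result had been seen. With it, a tract was found at 8 of the 9 hosts (all but Snhg1) and in 39.5% of entries. The 9 hosts had 11 entries, and a host counted if any of its entries held a tract. Both background shares are of single entries, so the bases are unlike. The absence of a longer tract says only that these letters are not in this window. The Snhg12 window is shown because this gene held the long tract, and that of Rabggtb, the member that was higher, beside it. Capitals mark the tract of 8 bases, which starts 2 bases before the annotated start, and the windows are 60 bases long.
Snhg12, chr4:132308648-132308707, plus strand: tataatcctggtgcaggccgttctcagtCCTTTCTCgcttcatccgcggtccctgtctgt
Rabggtb, chr3:153912937-153912996, minus strand: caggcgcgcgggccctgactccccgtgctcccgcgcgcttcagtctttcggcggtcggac

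FPKM values carry no read counts. From the steps of low values in 5393 single-transcript genes, the libraries were estimated at about 5500000 fragments (control) and 6200000 fragments (JAK2 V617F). Of 252 and 508 low genes, 79.8% and 85.0% lay within 0.2 of a whole number of fragments. The estimate was picked for the sharpest steps in these same genes, so the shares describe the fit and do not check it. The stromal genes Lepr, Cxcl12, Pdgfrb, Pdgfra, Ebf3, Kitl, Nes and Vcam1 were all above 0 in both libraries, with 8 of 8 within 2-fold and summed levels of 1160 and 923 FPKM. Of these stromal genes, 2 were higher in JAK2 V617F cells and 6 were lower. Of 7 leukocyte markers, none was at 0 and all 7 were higher, 2 of them by 2-fold or more. Their sums were 307 and 424 FPKM. Of 8 erythroid markers, all 8 were lower, 3 of them by at least 2-fold, with sums of 2638 and 1217 FPKM. Of 6 endothelial markers, 3 were higher, 1 of them by at least 2-fold, and 3 were lower, with sums of 28.3 and 33.7 FPKM. Of 8 proliferation genes, all 8 were lower, 1 of them by at least 2-fold, with sums of 1540 and 1175 FPKM. The part of these cells in the values below was not tested, and in bulk samples fewer cells of a type and less RNA per cell cannot be told apart.

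Rabggtb and Thumpd3 differed between the libraries by more than 20-fold in opposite directions. Differences are given as log2((JAK2 V617F FPKM + 1)/(control FPKM + 1)), the log2 ratio, and a row was called at 2-fold, a log2 ratio of 1 or more or of -1 or less. Both hosts with their own row were called, 1 higher and 1 lower. Over all 15425 rows that passed the filter, 25.0% were called, 13.7% higher and 11.3% lower. Over 11625 protein-coding rows 18.6% were called, 9.92% higher and 8.68% lower. Over the 848 protein-coding rows that reached 100 FPKM in a library, a level set after seeing the data, 6.96% were called, 2.24% higher and 4.72% lower. At 16-fold 0.59% of these 848 were called, Rabggtb and Thumpd3 among them. The 16-fold limit was also set after seeing the data, with these 2 genes in view, so this share is a description only. Thumpd3 reached 100 FPKM in control cells only. The median log2 ratio of the 2 hosts, 0.08, describes neither of them, beside -0.03 over all rows.

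Rabggtb encodes the beta subunit of Rab geranylgeranyl transferase, the enzyme that attaches lipid anchors to Rab GTPases. Its row, at chr3:153907289-153912966, stood at 166 FPKM in control cells and 4006 FPKM in JAK2 V617F cells. That is a ratio of 24.1 and a log2 ratio of 4.58. Among 18840 protein-coding rows it was the 412th highest in control cells and the 3rd highest in JAK2 V617F cells.

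The 2 small RNA rows of the same locus did not move with their host. Snord45b stood at 11064 FPKM in control cells and 4791 FPKM in JAK2 V617F cells, 2.31-fold lower (log2 ratio -1.21). The row named SNORD45, which could be Gm24494 or Snord45c and was matched to neither, stood at 2200 and 1908 FPKM (-0.21). Of 502 small RNA rows that passed the filter, 77.9% were called, 44.6% higher and 33.3% lower. These rows were picked by the start of their symbols. They also take in microRNAs, other small RNAs and longer genes with such a symbol, as Mir17hg. The snoRNAs are shorter than the sonicated cDNA fragments the labels describe, and their levels were not compared with those of the hosts. Of the 12 annotated Rabggtb transcripts, 1 has an exon over Snord45b and 2 have one over Snord45c, so host and snoRNA share sequence there. The part of reads divided between these rows was not tested.

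Thumpd3 encodes a methyltransferase that modifies guanosine in transfer RNA. Its row stood at 1143 FPKM in control cells and 52.1 FPKM in JAK2 V617F cells. It was 21.9-fold lower, with a log2 ratio of -4.43. It was the 30th highest protein-coding row in control cells and the 1575th in JAK2 V617F cells. Gm22591 had no row of its own, so no small RNA value could be set beside this host.

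The locus of the Thumpd3 row, chr6:113046225-113077333, also holds Gt(ROSA)26Sor, the noncoding ROSA26 transcript, which is antisense to Thumpd3 and overlaps its 3′ end. Gt(ROSA)26Sor stood at 20.2 FPKM in control cells and 28.7 FPKM in JAK2 V617F cells (log2 ratio 0.48). The neighbour in the same locus was thus within 2-fold while Thumpd3 was not. Whether the authors' counting used strand is not given in the sources used here, and without strand the reads of the overlap cannot be told apart.

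The number of fragments behind these values can be estimated only from the depth above and the lengths of the GENCODE vM21 transcripts, with amplified copies not told apart. Rabggtb has 12 annotated transcripts of 382 to 1992 nt, 9 of them of the nonsense-mediated decay class and 2 protein-coding. On those lengths its control value would be 194 to 1669 fragments and its JAK2 V617F value 5300 to 45546 fragments. Thumpd3 has 10 transcripts of 371 to 3072 nt, 5 with a retained intron. Its control value would be 1267 to 18299 fragments and its JAK2 V617F value 65 to 944. A gene's value sums its transcripts, and the table does not say which transcript carried it in which library. The part of transcript assignment in these differences was not tested.

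**Figure D3:**
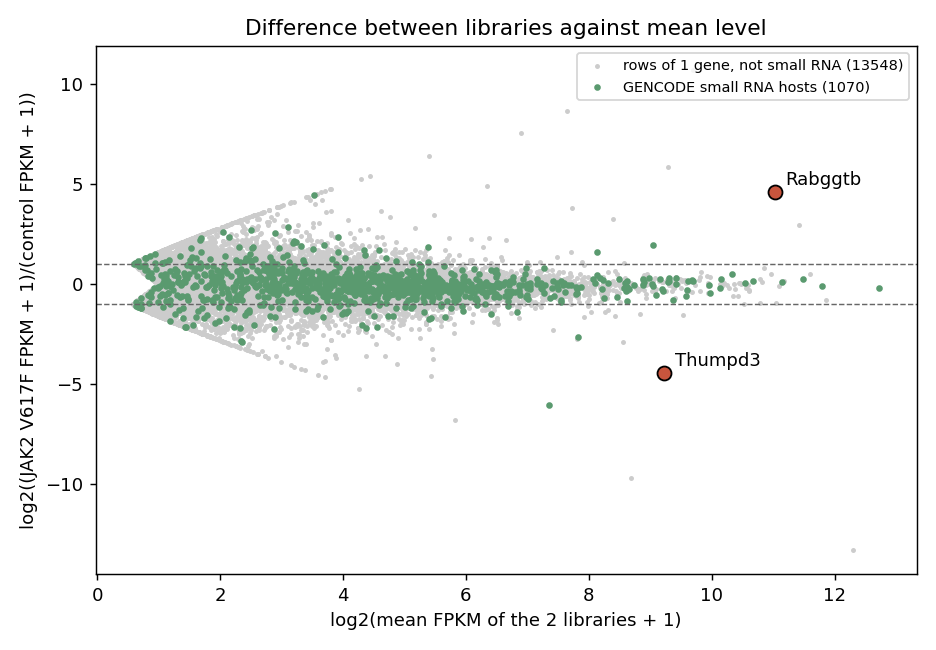
Log2 ratio (vertical axis) against log2 of the mean FPKM of both libraries plus 1 (horizontal axis) for rows at 1 FPKM or more in a library. Grey points are rows of 1 gene that are neither small RNAs nor tagged hosts, green points 1070 GENCODE small RNA hosts, and dashed lines mark 2-fold. Rabggtb, at 4.58, and Thumpd3, at -4.43, lie far outside the band of most hosts of similar level. Another tagged host, Tmem38b, lies lower still, at -6.04.

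The remaining hosts could be read only through rows that mix host and small RNA or carry another name. The Gas5 row, at chr1:161008794-161038539, names 9 small RNAs with Gas5 and stood at 1279 FPKM in control cells and 1186 FPKM in JAK2 V617F cells. Its log2 ratio was -0.11, and 0.07 after rescaling the libraries to the same sum. Zbtb37, a zinc finger gene on the opposite strand of that locus, was at 6.72 and 11.2 FPKM. The Snhg12 row, at chr4:132308678-132311024, names 3 small RNAs and stood at 925 and 603 FPKM (log2 ratio -0.62). Snora16a, a separate row of that locus, stood at 149 and 42.9 FPKM, 3.47-fold lower (-1.77). The host row and the snoRNA row were both lower here, but only Snora16a passed 2-fold.

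At Snhg1 and Snhg5 the rows on the same interval were nearly level. The row at Snhg1, chr19:8723496-8726442, named AC025794.1 with 8 small RNAs, stood at 79.7 FPKM in control cells and 77.8 FPKM in JAK2 V617F cells. The row at Snhg5, chr9:88521056-88522883, named CT025673.1, stood at 120 and 118 FPKM. Their log2 ratios of -0.03 and -0.02 became 0.14 and 0.16 after rescaling to the same sum. Both SNORD50 rows of the Snhg5 locus were listed at 0 in both libraries.

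At Snhg7, the row named AL732311.1 with Snora17 and Snora43 (chr2:26637177-26640244) stood at 74.6 FPKM in control cells and 11.6 FPKM in JAK2 V617F cells. It was 6.43-fold lower, with a log2 ratio of -2.59. It was the farthest from level of the shared and renamed rows, and host and snoRNA signal cannot be separated in it.

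Where no host row was found, the snoRNA and neighbouring rows were read alone. Snord87, in Snhg6, stood at 2684 FPKM in control cells and had a listed value of 0 in JAK2 V617F cells. Snora24, in Snhg8, stood at 1392 and 2085 FPKM (log2 ratio 0.58). Snora73b, in Snhg3, stood at 429 and 286 FPKM (-0.58). The locus also gave Rcc1, the chromatin-bound exchange factor of Ran that overlaps Snhg3, at 118 and 112 FPKM, and the antisense Gm17300 at 41.4 and 22.9 FPKM.

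Taking the 8 small RNA rows at member loci together, 2 were at 0 in both libraries, 5 were lower in JAK2 V617F cells and 1 was higher. Of these, 3 were at least 2-fold lower (Snord45b, Snora16a and Snord87) and none was at least 2-fold higher. Of the 6 above 0 in a library, 3 were thus called lower, beside 33.3% of the 502 small RNA rows that passed the filter. Those 502 are not all snoRNAs, and their median log2 ratio was 0.36. Rabggtb was the one host of its own row whose snoRNA rows could be set beside it. Snord45b (log2 ratio -1.21) and SNORD45 (-0.21) both lay on the other side of level from Rabggtb, SNORD45 within 2-fold.

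**Figure D4:**
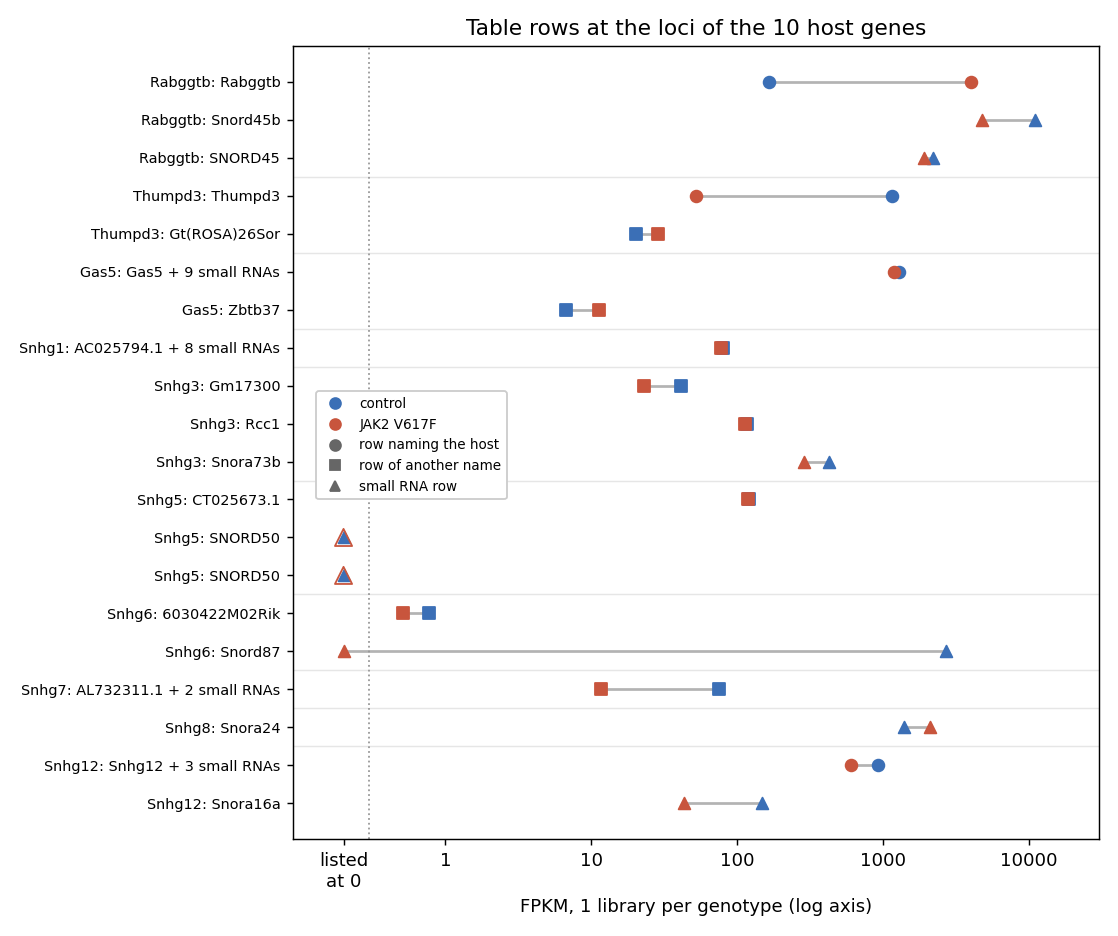
FPKM on a log axis in the control (blue) and JAK2 V617F (red) library for the 20 table rows at the 10 loci, 1 library per genotype, with values listed at 0 left of the dotted line. Circles are rows naming the host, squares rows of another name and triangles small RNA rows. Rabggtb runs from 166 to 4006 FPKM while Snord45b runs from 11064 to 4791 and SNORD45 from 2200 to 1908.

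From 54 other hosts listed by function, 42 had a row of their own that passed the filter. Of these 42, 1 was at least 2-fold higher and none was at least 2-fold lower, beside 25.0% called over all rows and 6.96% over protein-coding rows of 100 FPKM or more. Their median log2 ratio was 0.05. Of 21 ribosomal protein hosts, all lay within 2-fold, from -0.62 to 0.48. Rpl23a stood at 7186 and 6354 FPKM and Rpl4 at 1461 and 1524 FPKM. Of 19 other protein-coding hosts all lay within 2-fold, from -0.82 to 0.26. Atp5b, a subunit of mitochondrial ATP synthase, stood at 3670 and 3415 FPKM, and the translation helicase gene Eif4a2 at 1040 and 1235 FPKM. Of 13 genes listed as SNHG-type hosts, 2 passed the filter. Snhg9, which shares its locus with Rps2, was higher at 10.2 and 35.8 FPKM (1.71), and the protein-coding host Cwf19l1 stood at 7.91 and 12.6 FPKM (0.61).

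GENCODE tags 1704 genes as hosts of small RNAs, a wider set that includes hosts of microRNAs and other classes. Of these, 1070 had a row of their own that passed the filter. Of them 15.0% were called, 6.92% higher and 8.04% lower, and their median log2 ratio was -0.04. Protein-coding rows without the tag were called in 19.0% of 10592. The 37 noncoding rows with the tag were called in 37.8%. The share over noncoding rows without the tag was not computed, so 37.8% cannot be read as particular to hosts. All rows were called in 25.0% and protein-coding rows in 18.6%, so rows outside the protein-coding set were called more often. At 16-fold, a limit set after seeing the data, 0.374% of the 1070 were called. Rabggtb had the highest log2 ratio of the 1070 and Thumpd3 the 2nd lowest.

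The proteins of the snoRNA particle showed no member past 2-fold, beside 18.6% of protein-coding rows and 25.0% of all rows. The median log2 ratio over protein-coding rows was -0.04, and the share of them below 0 was not counted. Of 5 box C/D genes, 1 lay above 0 and 4 below, with a median log2 ratio of -0.21. The core protein genes Nop56 and Nop58 stood at 429 and 271 FPKM (-0.66) and at 87.5 and 82.1 FPKM. Of 6 box H/ACA genes, 2 lay above 0 and 4 below, with a median of -0.16. Gar1 stood at 227 and 231 FPKM. Dkc1, the gene of the pseudouridine synthase dyskerin, stood at 177 and 130 FPKM (-0.44), and like Nop56 it is itself a host. Among 9 assembly and trafficking genes (median 0.15), the helicase gene Ruvbl2 stood at 79.3 and 82.0 FPKM and the exportin gene Xpo1 at 67.4 and 113 FPKM.

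Among 10 genes that process introns and trim snoRNAs, 3 were called, beside 25.0% of all rows and 18.6% of protein-coding rows. Their median log2 ratio was -0.27. Past 2-fold were 2 on the higher side, Dbr1 and Tfip11, and 1 that was lower, Exosc9. Dbr1, the enzyme that debranches intron lariats and so frees intronic snoRNAs, stood at 12.9 FPKM in control cells and 41.3 FPKM in JAK2 V617F cells (1.60). Tfip11, a factor of spliceosome disassembly, stood at 5.96 and 13.0 FPKM (1.01). With a pseudocount of 5 the log2 ratio of Tfip11 was 0.72 and under 2-fold. Exosc9, a subunit of the RNA exosome that shares its locus with Ccna2, stood at 30.8 and 11.6 FPKM (-1.33). The exosome genes Exosc3 and Skiv2l2 stood at 95.9 and 60.7 FPKM and at 52.5 and 46.4 FPKM.

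None of 12 nonsense-mediated decay genes passed 2-fold, beside 18.6% of protein-coding rows. Of the 12, 10 lay below 0, with a median of -0.20 beside -0.04 over protein-coding rows. Rescaling the libraries to the same sum raises log2 ratios by up to about 0.18, so this lean depends on the scaling. Smg9, a cofactor of the kinase that phosphorylates UPF1, stood at 63.2 and 32.0 FPKM (-0.96). None of 10 regulators of mTOR and TOP translation passed 2-fold, beside the same 18.6%, and they ran from -0.31 to 0.24 (median 0.04). The transcription factor gene Myc stood at 140 and 157 FPKM and the S6 kinase gene Rps6kb1 at 104 and 102 FPKM.

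**Figure D5:**
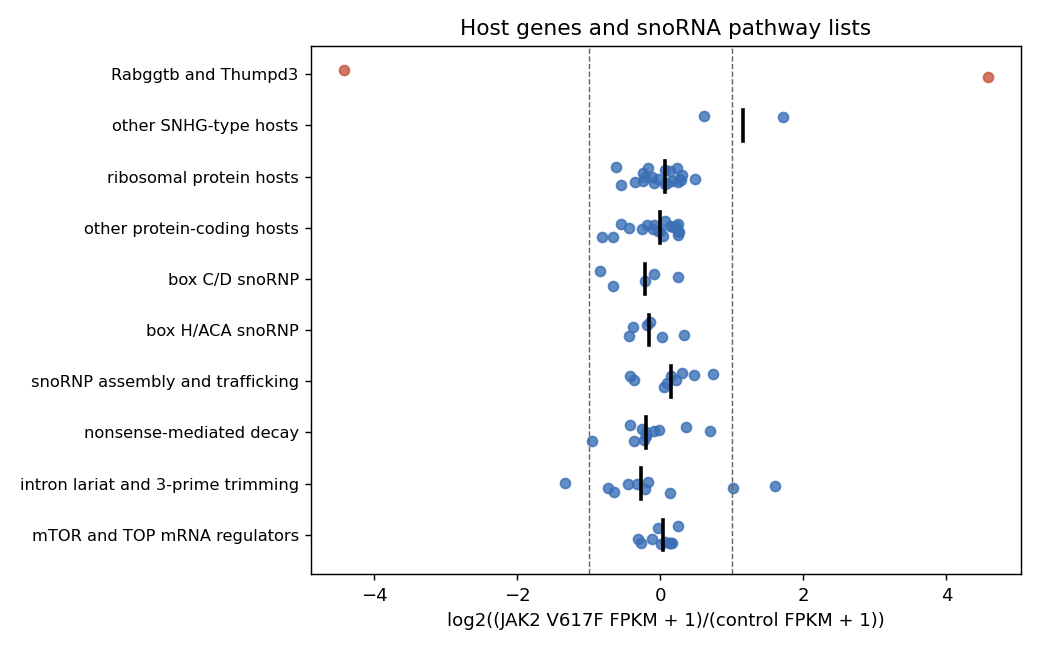
Log2 ratio of each gene that passed the filter, by list, with a black bar at the list's median and dashed lines at 2-fold. Red points are Rabggtb and Thumpd3, at 4.58 and -4.43, and the genes of the 9 lists drawn, which leave out the cell type and proliferation markers, lie between -1.33 and 1.71.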

How the data were processed

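RNA of 2 libraries was measured by sequencing. Per the labels' protocols, RNA was amplified to cDNA (Ovation RNA-Seq System v2), sonicated and sequenced on a Genome Analyzer IIx. The authors deposited FPKM per gene and library. The submitters' processing notes name build GRCm38, Cufflinks, the aligners TopHat2 2.0.7 and Bowtie2 2.0.6, and cutadapt 1.2.1. The sources used here do not give the annotation, the use of strand or any scaling between libraries. No molecular identifiers are mentioned, so amplified copies were not told apart.

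From these values log2 ratios were computed with a pseudocount of 1, a filter of 1 FPKM in at least 1 library and a 2-fold call (Python 3.11.15, pandas 2.3.3). The members and lists were chosen with earlier results of these data known. Of 35798 rows, 401 name several genes and were left out of lists. All members and the small RNA rows at their loci are named, and from each list the genes past 2-fold and the 2 highest in the control, except 1 gene that is not reported here. With 2 libraries no gene was sought for likeness of pattern. Table starts were raised by 1 to count from 1. The fragment value assumes a length offset of 170 nt, picked as the one giving the sharpest steps. The ratio and depth steps were tested on simulated data. Alternatives changed the pseudocount (0.1 and 5), the filter (none and 5 FPKM) and the scaling.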

Additional observations from a re-analysis of the deposited data

How the results depend on the processing

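Rabggtb and Thumpd3 kept their direction and stayed past 2-fold under the 7 alternatives of pseudocount, filter and scaling, with log2 ratios of 4.55 to 4.76 and of -4.45 to -4.25. Of 119 single log2 ratios recomputed for 17 rows or genes, 118 stayed on the same side of 2-fold. Changing the filter cannot alter a single log2 ratio, those of Rabggtb and Thumpd3 included. Only the pseudocount and scaling alternatives could move these values. The count over all rows fell from 3851 to 1243 with a pseudocount of 5 and to 2123 at 5 FPKM or more. The median of the 2 hosts, 0.08, was 0.25 after rescaling to the same sum and 0.20 after rescaling to the same upper quartile, and -0.36 with the Gas5 and Snhg12 rows added, an alternative chosen after seeing the data. Rescaling to the same sum moved the log2 ratio of rows well above 1 FPKM in both libraries by about 0.18, and that of lower rows by less. No paired analysis was possible because each group had 1 library. Depth is known only as an estimate, and for snoRNA rows not at all.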

Other observations

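Only 5 protein-coding rows that reached 100 FPKM differed by 16-fold or more between the libraries, 0.59% of 848. They were Rabggtb, Thumpd3, Tmem38b, Clec3a and Prg4, named after their values were seen. The 16-fold and 100 FPKM limits were also set after seeing the data, with Rabggtb and Thumpd3 in view. Of these 5 genes, only Rabggtb reached 100 FPKM in both libraries. Tmem38b, which GENCODE also tags as a small RNA host and which encodes an intracellular cation channel, stood at 320 FPKM in control cells and 3.88 FPKM in JAK2 V617F cells (log2 ratio -6.04), and the small RNA annotated inside it is n-R5s185, a 5S ribosomal RNA gene copy on the same strand.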
